A study of Mus musculus with 28 samples.

Results

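Chemokine ligands are small secreted proteins that steer white blood cells along a concentration gradient, and 10 of them were followed here in macrophages of the mouse brain: Ccl2, Ccl3, Ccl4, Ccl6, Ccl7, Ccl8, Ccl9, Ccl12, Cxcl2 and Cxcl16. The genes were taken by symbol from a table of 14617 genes, in which all 10 were present, and all 10 passed the filter on low counts that left 12327 genes for testing. RNA was measured with MARS-seq, which captures the polyadenylated 3′ ends of transcripts and counts them by unique molecular identifiers (UMIs), in 28 libraries. Cx3cr1 gfp/+ mice, in which the GFP reporter marks microglia and brain macrophages of the host, were lethally irradiated and given marrow of 1 of 2 genotypes. Mutant marrow was Vav-Cre: hDNMT3A fl/fl, in which Cre driven by the Vav promoter acts in blood-forming cells, and control marrow was hDNMT3A fl/fl without Cre. The brains were taken 16 weeks later. GFP-negative (donor) and GFP-positive (host) cells were sorted from the leptomeninges, the thin membranes at the surface of the brain, and from the parenchyma, where the labels call both kinds microglia. Donor leptomeningeal cells, donor microglia and host microglia had 4 mutant and 4 control libraries each, and host leptomeningeal cells had 2 mutant and 2 control libraries. The labels do not say that libraries are separate animals, so every p-value measures the spread between these libraries, which may be technical. All chimeras were irradiated and grafted, and actinomycin D, which blocks transcription, was present during cell isolation in all groups.

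The 10 ligands fall into groups by the receptors they use. Ccl2, Ccl7 and Ccl12 bind Ccr2 and draw monocytes out of the blood, and Ccl8, a close relative, binds Ccr8 in the mouse. Ccl3 and Ccl4 are inflammatory ligands made early by activated macrophages, and Ccl3, Ccl6 and Ccl9 bind Ccr1. Cxcl2 attracts neutrophils through Cxcr2. Cxcl16 is made as a membrane protein, serves as a scavenger receptor and adhesion molecule, and is released by the proteases Adam10 and Adam17 to act on Cxcr6. In the brain, microglia and border macrophages are known sources of such ligands, and many of the genes are induced within minutes to hours through NF-kB.

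Libraries held 479077 to 3066506 UMIs with a median of 1634653.5, and levels are given as CPM, the UMIs of a gene per 1000000 UMIs of its library. The shallowest were the donor microglia, at 479077 to 1013608 UMIs, and a count of 0 allows up to 3 UMIs, or 6.26 CPM in the shallowest library and 0.978 CPM in the deepest. The limits for a count of 0 cover counting error only. Control donor microglia library 1 and mutant donor microglia library 4 had the fewest UMIs (479077 and 487382) and had stood apart in earlier work on these data, so changes without both are given where they matter. The refit without both kept control donor microglia library 2. Leaving out that library alone moved the genes called for genotype in donor microglia from 11 to 544. Sorted populations were checked by the summed share of marker genes. The 10 microglia markers made up 0.171 to 0.294% of UMIs in donor leptomeningeal cells, 0.541 to 0.884% in host leptomeningeal cells, 0.585 to 0.842% in donor microglia and 2.00 to 2.54% in host microglia. The 10 border macrophage markers made up 0.337 to 0.608%, 1.18 to 1.65%, 0.160 to 0.232% and 0.0853 to 0.105% in the same order. The GFP-negative gate can hold any cell without GFP. All 12 neutrophil markers were detected in every group, and they took 3.66 to 9.70% of UMIs in donor leptomeningeal cells, against 0.200 to 0.5998% in host leptomeningeal cells, and 0.111 to 0.984% in donor microglia, against 0.0591 to 0.153% in host microglia. Choroid plexus markers (Ttr and Folr1) took 1.59 to 3.33% of UMIs in donor microglia and at most 0.0378% in any library of the other populations, with Folr1 at 0 in all host leptomeningeal libraries. The mouse Dnmt3a gene averaged 25.8 CPM in donor leptomeningeal cells, 44.6 in host leptomeningeal cells, 69.1 in donor microglia and 119 in host microglia, but it does not report the human allele and so does not check the genotype labels. In these bulk samples, fewer cells of a type and less RNA per cell cannot be told apart.

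The summed level of the 10 ligands was highest at the brain surface. It averaged 2579 ± 354 CPM in donor leptomeningeal cells (SD, n = 8), 2877 ± 389 in host leptomeningeal cells (n = 4), 1480 ± 213 in donor microglia (n = 8) and 1064 ± 78.9 in host microglia (n = 8). The make-up of the sum differed as well. Ccl2, Ccl7, Ccl8 and Ccl12 together took 41.6 ± 3.88% of the ligand UMIs in donor leptomeningeal cells and 60.6 ± 3.73% in host leptomeningeal cells, but 12.6 ± 1.82% in donor microglia and 11.6 ± 1.51% in host microglia. Cxcl2 and Cxcl16 took 43.1 ± 1.82% in donor microglia, against 9.34 ± 0.791% in host microglia. Ccl3 and Ccl4 took 36.2 ± 3.06% in donor microglia, against 50.6 ± 1.54% in host microglia, and Ccl6 and Ccl9 took 8.04 ± 0.848% against 28.5 ± 1.30%. These shares compare UMIs of different genes, which were not corrected for how well each transcript is captured.

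**Figure D1:**
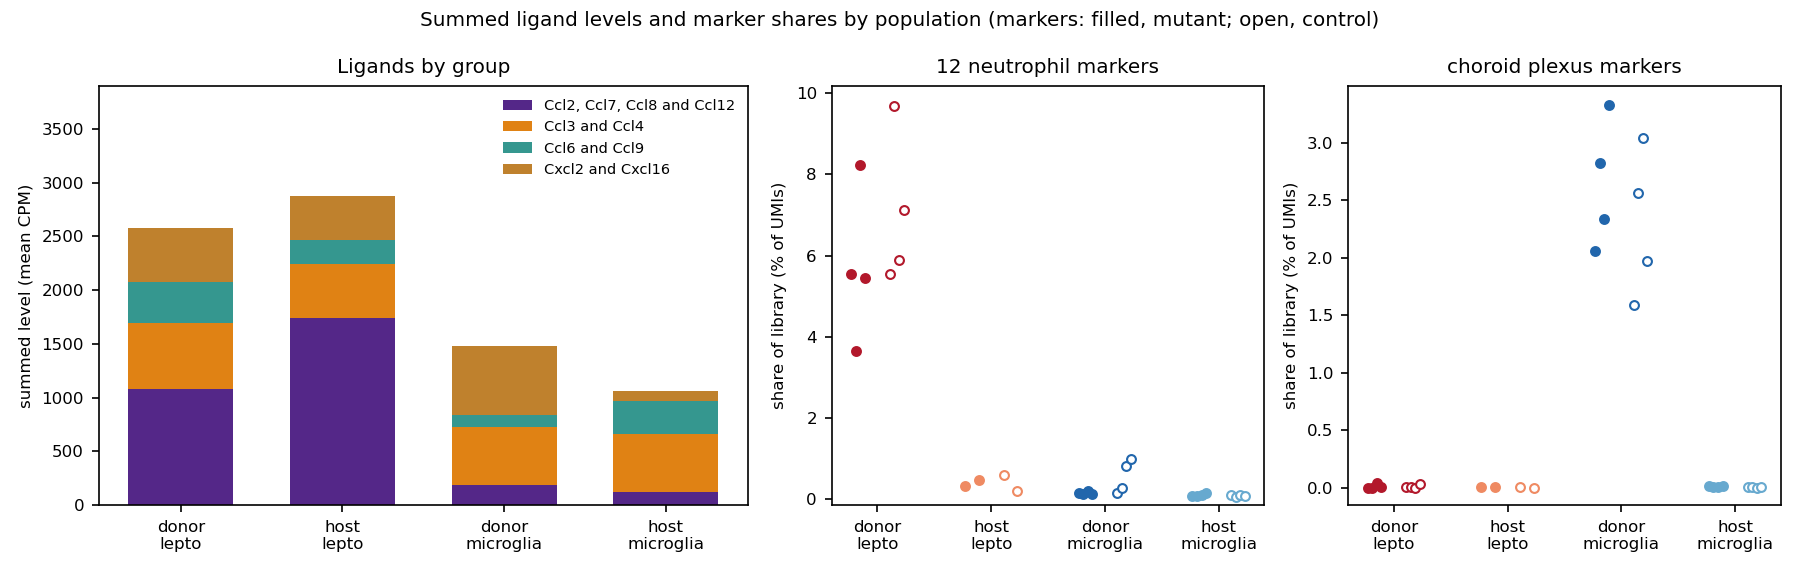
Left, stacked bars of the mean summed level (CPM) of 4 groups of ligands in each population, with the Ccl2, Ccl7, Ccl8 and Ccl12 group at the bottom; middle and right, the share of UMIs (%) of the neutrophil and choroid plexus marker lists, 1 point per library. Ccl2, Ccl7, Ccl8 and Ccl12 fill most of the difference between leptomeningeal cells and microglia, neutrophil markers are high in the donor leptomeningeal libraries (3.66 to 9.70%) and choroid plexus markers in the donor microglia (1.59 to 3.33%).

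Origin and compartment were compared with edgeR's quasi-likelihood test over all genes, with Benjamini-Hochberg (BH) adjustment at 0.05 and both genotypes averaged. Between donor and host microglia, 7 of the 10 ligands were higher and 3 lower in donor cells, in a comparison where 60.4% of all genes tested were called (33.1% higher and 27.3% lower). Between donor and host leptomeningeal cells, 5 were higher and 2 lower in donor cells, where 30.2% of genes were called (16.9% higher and 13.3% lower). Between leptomeningeal cells and microglia of donor origin, 8 were higher and 1 lower at the surface, where 62% of genes were called (30.5% higher and 31.5% lower). For host origin 8 were higher and 2 lower at the surface, where 56.7% were called (31.1% higher and 25.7% lower). The median log2 fold change of the 10 ligands was 0.59 for donor minus host microglia, 0.34 for donor minus host leptomeningeal cells, 1.73 for leptomeninges minus parenchyma in donor cells and 1.90 in host cells. The medians over all genes tested in the same 4 comparisons were 0.04, 0.02, -0.03 and 0.08. The comparisons share libraries and are therefore not independent of each other.

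The difference between the origin effects of both compartments was tested as an interaction. It passed for 9 of 10 ligands, 3 in the positive and 6 in the negative direction, where 42.3% of all genes tested were called (19.1% positive and 23.2% negative). A positive value means that donor cells stood higher relative to host cells at the surface than in the parenchyma. Ccl9 had 2.67 ± 0.35 (log2 ± SE), Ccl6 2.10 ± 0.16 and Ccl4 1.13 ± 0.22, and for these ligands donor cells were above host cells at the surface and below them in the parenchyma. Negative values were found for Cxcl2 (-3.96 ± 0.32), Ccl7 (-2.79 ± 0.30), Ccl8 (-2.51 ± 0.42), Cxcl16 (-1.63 ± 0.13), Ccl2 (-1.32 ± 0.22) and Ccl12 (-0.71 ± 0.27, adjusted p = 0.0404). Ccl12 lost this call in 15 of 28 refits that left out 1 library, with values of -0.70 to -0.58 in those refits, and had -0.62 (adjusted p = 0.101) without both shallowest donor microglia libraries. Ccl3 had -0.16 ± 0.19 (adjusted p = 0.537) and did not pass.

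**Figure D2:**
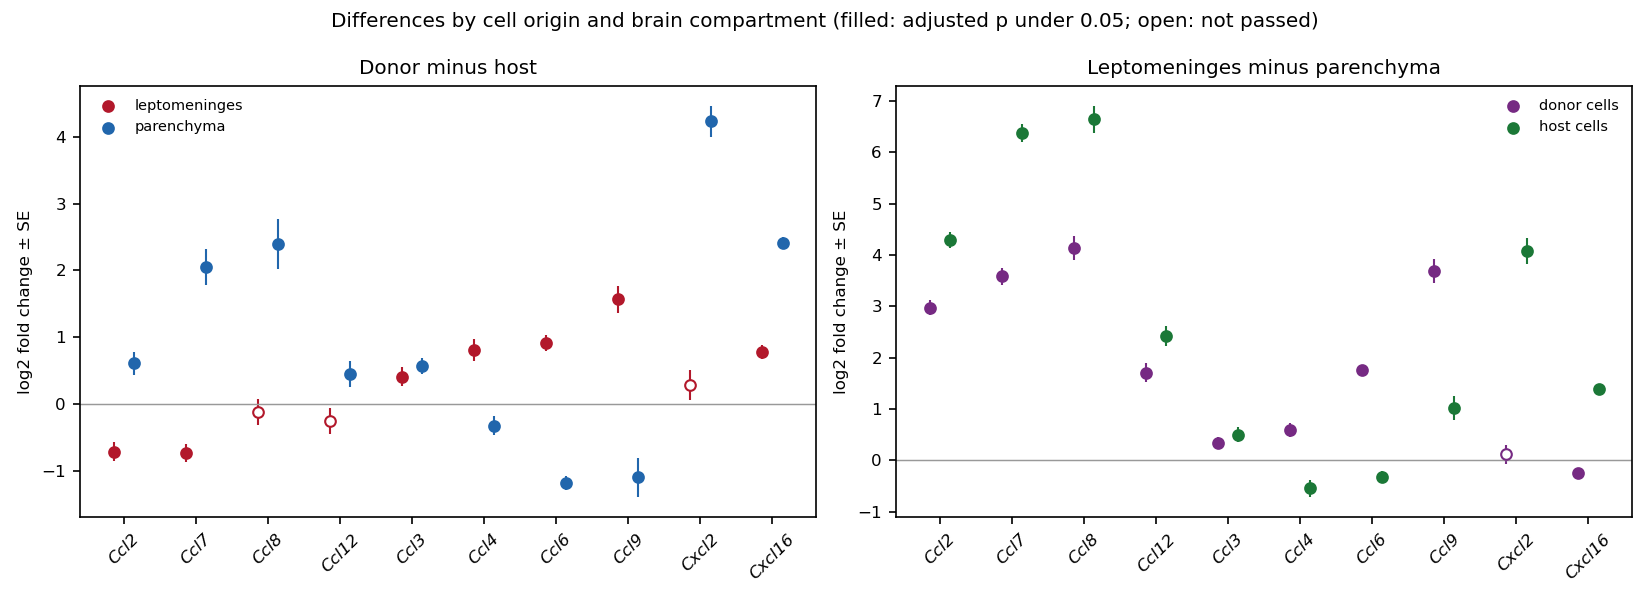
Log2 fold change (points) with SE (bars) of each ligand, for donor minus host cells in each compartment (left) and for leptomeninges minus parenchyma in each origin (right); filled points passed an adjusted p of 0.05. In the left panel Ccl2 and Ccl7 lie below 0 at the surface and above 0 in the parenchyma, while Ccl4, Ccl6 and Ccl9 lie the other way round, and in the right panel Ccl7 and Ccl8 of host cells lie above 6.

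Ccl2, Ccl7, Ccl8 and Ccl12, the monocyte chemoattractant group, were higher in leptomeningeal cells than in microglia whatever the origin. The 4 genes lie in a cluster on chromosome 11 of mm10, all on the plus strand of the GENCODE M21 annotation, with Ccl2 at chr11:82035571-82037453, Ccl7 at chr11:82045712-82047525, Ccl12 at chr11:82101845-82103400 and Ccl8 at chr11:82115185-82116799. Ccl2 had 208, 294 and 417 CPM (lowest, median and highest of 8) in donor leptomeningeal cells and 546 and 562 (mutant) and 505 and 735 CPM (control) in the 4 host leptomeningeal libraries. In donor microglia it had 24.3, 47.8 and 61.2 CPM, and in host microglia 23.5, 32.0 and 44.1 CPM. The leptomeningeal and microglial ranges were thus far apart, the host libraries of the surface stood above all donor ones, and the ranges of the microglia overlapped. Ccl2 was higher at the surface by 2.97 ± 0.15 in donor cells (adjusted p = 2.88e-17) and by 4.29 ± 0.15 in host cells (adjusted p = 1.73e-21). Donor cells differed from host cells by -0.72 ± 0.14 in the leptomeninges (adjusted p = 1.13e-04) and by 0.61 ± 0.17 in the parenchyma (adjusted p = 0.00294). An antisense gene, Gm17268, overlaps Ccl2 on the other strand, and the sources at hand do not state whether strand was used in counting.

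Ccl7 went furthest between the compartments of host cells together with Ccl8. It had 123, 200.4 and 262 CPM in donor leptomeningeal cells (lowest, median and highest of 8) and 310.2 and 432 (mutant) and 320.1 and 437 CPM (control) in host leptomeningeal cells. Donor microglia had 11.7, 17.2 and 28.8 CPM and host microglia 2.67, 5.05 and 7.58 CPM. All 4 populations were separate, with host leptomeningeal cells highest and host microglia lowest. The microglia values rest on few UMIs, 109 over all donor and 86 over all host microglia libraries. Donor cells were lower than host cells at the surface by -0.74 ± 0.14 (adjusted p = 5.07e-05) and higher in the parenchyma by 2.05 ± 0.27 (adjusted p = 4.86e-08). The step from parenchyma to surface was 3.58 ± 0.17 on the log2 scale in donor cells and 6.38 ± 0.18 in host cells.

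Ccl8 had 239.7, 299.9 and 457 CPM in donor leptomeningeal cells and 369 and 536 (mutant) and 333 and 375 CPM (control) in host leptomeningeal cells. It had 7.22, 23.97 and 39.0 CPM in donor microglia and 0, 5.11 and 6.83 CPM in host microglia, where mutant library 3 had 0 UMIs, which allows up to 1.97 CPM. Surface libraries of both origins overlapped, and donor microglia stood just above the highest host microglia library. The leptomeningeal level was higher by 4.13 ± 0.23 in donor cells and by 6.65 ± 0.27 in host cells. Donor microglia were higher than host microglia by 2.39 ± 0.38 (adjusted p = 9.81e-06), while donor and host cells of the surface had a log2 difference of -0.12 ± 0.20 (adjusted p = 0.704).

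Ccl12, a mouse ligand of Ccr2, was the least uneven of this group. It had 148, 253 and 410.0 CPM in donor leptomeningeal cells, 451 and 359 (mutant) and 322 and 368 CPM (control) in host leptomeningeal cells, 74.5, 95.5 and 125 CPM in donor microglia, and 56.5, 74.9 and 118 CPM in host microglia. All surface libraries were above all microglia libraries, and donor and host ranges overlapped in both compartments. The surface level was higher by 1.70 ± 0.18 in donor cells and by 2.42 ± 0.20 in host cells. Donor minus host was 0.45 ± 0.19 in microglia, at an adjusted p of 0.0487 that was lost in 12 of 16 refits without 1 library (0.32 to 0.47 in those refits) and without both shallowest donor microglia libraries (0.35, adjusted p = 0.181). At the surface it was -0.26 ± 0.19 (adjusted p = 0.351), and with libraries scaled to their totals alone it was -0.49 (adjusted p = 0.0498).

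The sequences upstream of Ccl8 and Ccl12 are shown because these neighbouring genes were both higher at the surface in cells of either origin. They are the bases before the RefSeq start on GRCm38.p6 (the mm10 build), 5′ to 3′, in a table that held 6 of the 10 ligands, and capitals mark a TATA box (TATAAA on either strand).
Ccl8 (chr11:82114935-82115184, plus strand): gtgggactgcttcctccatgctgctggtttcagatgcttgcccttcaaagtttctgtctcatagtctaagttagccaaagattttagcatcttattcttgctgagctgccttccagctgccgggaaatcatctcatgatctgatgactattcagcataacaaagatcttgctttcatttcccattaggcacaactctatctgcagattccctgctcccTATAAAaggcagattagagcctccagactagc
Ccl12 (chr11:82101595-82101844, plus strand): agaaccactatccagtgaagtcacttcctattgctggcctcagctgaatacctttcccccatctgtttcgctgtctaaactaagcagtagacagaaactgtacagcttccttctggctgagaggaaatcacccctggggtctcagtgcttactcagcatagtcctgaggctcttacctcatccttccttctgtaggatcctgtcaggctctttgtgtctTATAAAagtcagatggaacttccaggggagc
Aligned end to end, both windows had 58% identical bases, and the other 14 pairs among the 6 ligands had 46 to 54.4%. Each held a single TATA box close to the start, from base 32 to 27 before it in Ccl8 and from base 31 to 26 in Ccl12, and 12.4% of the 32851 windows in the table held one on either strand. Neither window matched the NF-kB consensus or the AP-1 motif TGANTCA. A match or its absence in such a window is a description of the letters and not of a factor at work.

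Of this group, Ccl2 and Ccl7 were lower in donor than in host leptomeningeal cells, and Ccl8 and Ccl12 did not pass. Border macrophage markers were also lower in donor cells there, at 0.337 to 0.608% of UMIs against 1.18 to 1.65% in host cells. Neutrophil markers were higher in donor cells there, at 3.66 to 9.70% against 0.200 to 0.5998%. The part of either marker list in the difference between donor and host cells was not tested. In the parenchyma the 4 ligands were higher in donor than in host microglia, Ccl12 not stably. Border macrophage markers were also higher in donor microglia, at 0.160 to 0.232% against 0.0853 to 0.105%. Monocyte markers were at 0.0138 to 0.0648% against 0.00269 to 0.00855%, and microglia markers were lower, at 0.585 to 0.842% against 2.00 to 2.54%. Their part in the microglia differences was not tested either. Across the donor leptomeningeal libraries, the summed level of the 4 ligands ran from 719 to 1546 CPM.

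Cxcl2 and Cxcl16, the CXC ligands, were both higher in donor than in host microglia, and Cxcl2 had the largest fold of the 10 ligands in that comparison. Cxcl2 lies at chr5:90903871-90905938 on the plus strand. It had 147, 253 and 315 CPM in donor microglia (lowest, median and highest of 8), against 3.88, 14.5 and 23.0 CPM in host microglia. In donor leptomeningeal cells it had 129, 224 and 300.3 CPM, and in host leptomeningeal cells 189 and 246 (mutant) and 203 and 216 CPM (control). Host microglia thus stood alone at a low level, and the other 3 populations overlapped. The mean CPM was 16.3 times as high in donor as in host microglia, a log2 fold change of 4.24 ± 0.23 (adjusted p = 4.04e-13), and 14.5 times as high in host leptomeningeal cells as in host microglia (4.07 ± 0.25). Donor minus host was 0.28 ± 0.22 in the leptomeninges (adjusted p = 0.383). Between donor leptomeningeal cells and donor microglia the log2 difference was 0.12 ± 0.18 (adjusted p = 0.598), and -0.13 with libraries scaled to their totals alone.

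The sequence upstream of Cxcl2 on GRCm38.p6 is shown because it was the 1 of the 6 windows with 2 overlapping matches to the NF-kB consensus, which capitals mark.
Cxcl2 (chr5:90903649-90903898, plus strand): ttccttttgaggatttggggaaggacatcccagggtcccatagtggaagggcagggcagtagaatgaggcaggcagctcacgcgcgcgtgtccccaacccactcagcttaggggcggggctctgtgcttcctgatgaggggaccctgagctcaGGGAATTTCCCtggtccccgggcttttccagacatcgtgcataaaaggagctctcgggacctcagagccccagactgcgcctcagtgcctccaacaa
The matches lie on opposite strands of the same stretch, which covers bases 97 to 87 before the RefSeq start. Of all windows in the table, 7.25% held such a match on either strand. Of the other windows, that of Ccl9 held a match, and those of Ccl3, Ccl6, Ccl8 and Ccl12 held none.

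Cxcl16 (chr11:70453983-70459984, minus strand) had the smallest SE of the 10 ligands between donor and host microglia. It had 300.4, 407.5 and 453 CPM in donor microglia, against 72.3, 84.0 and 96.5 CPM in host microglia, and 232, 287 and 341 CPM in donor leptomeningeal cells, against 183 and 202 (mutant) and 189 and 204 CPM (control) in host leptomeningeal cells. Donor cells were above host cells in both compartments without overlap. The differences were 2.41 ± 0.09 in microglia (adjusted p = 1.04e-26) and 0.78 ± 0.11 in the leptomeninges (adjusted p = 6.55e-08). Donor leptomeningeal cells were lower than donor microglia by -0.24 ± 0.08 (adjusted p = 0.00998), and host leptomeningeal cells were higher than host microglia by 1.38 ± 0.10. Zmynd15 overlaps Cxcl16 on the other strand, so that their reads may not be told apart. Between donor and host microglia the sheddases went the other way from Cxcl16. Adam17 was lower in donor than in host microglia by -0.46 ± 0.09 and Adam10 by -0.60 ± 0.14, and neither passed between donor and host leptomeningeal cells. Both sheddases were lower in leptomeningeal cells than in microglia of either origin, as Cxcl16 was in donor cells only. Choroid plexus markers were high in the same donor microglia (1.59 to 3.33% of UMIs) and astrocyte markers made up 0.0538 to 0.290% there, against 0.0145 to 0.0199% in host microglia. Oligodendrocyte markers made up 0.0592 to 0.368% in donor microglia, against 0.00830 to 0.0109% in host microglia, and neuron markers 0.0106 to 0.0431%, against 0.000672 to 0.00125%. Their part in the higher levels of Cxcl2 and Cxcl16 was not tested.

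Ccl6 and Ccl9, ligands of Ccr1 that lie next to each other on the minus strand (chr11:83587882-83593087 and chr11:83572919-83578636), were both lower in donor than in host microglia. Ccl4, described further below, was also lower there, by a smaller and less stable difference. E230016K23Rik overlaps Ccl6 on the other strand. Ccl6 had 86.7, 114 and 137 CPM in donor microglia, against 255, 288 and 344 CPM in host microglia. It had 255, 321 and 378 CPM in donor leptomeningeal cells, against 231 and 174 (mutant) and 209 and 200.5 CPM (control) in host leptomeningeal cells. Neither pair of ranges overlapped, and donor cells were on opposite sides of host cells in the parenchyma and at the surface. Donor minus host was -1.19 ± 0.10 in microglia (adjusted p = 3.82e-14) and 0.91 ± 0.12 in the leptomeninges (adjusted p = 1.86e-08). Surface cells were higher than microglia by 1.76 ± 0.10 in donor cells and lower by -0.33 ± 0.11 in host cells (adjusted p = 0.0122), and the host difference was -0.22 (adjusted p = 0.167) without mutant host leptomeningeal library 2. Among windows of 40 bases in the last 300 of the Ccl6 transcript, 3.45% also occur in another gene (Slc17a4), and the other 9 ligands had none.

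Ccl9 was counted at low levels. It had 0, 5.11 and 10.4 CPM in donor microglia, where control library 1 had 0 UMIs (up to 6.26 CPM), against 7.56, 12.6 and 17.7 CPM in host microglia. In donor leptomeningeal cells it had 42.9, 52.5 and 67.4 CPM, against 29.1 and 21.7 (mutant) and 15.1 and 22.8 CPM (control) in host leptomeningeal cells. Donor leptomeningeal cells stood above all others, and the ranges of the other populations overlapped with their neighbours. Donor minus host was -1.10 ± 0.29 in microglia (adjusted p = 0.00116) and 1.57 ± 0.20 in the leptomeninges (adjusted p = 2.16e-08), and surface minus parenchyma was 3.69 ± 0.23 in donor and 1.02 ± 0.23 in host cells. Neutrophil markers were at 3.66 to 9.70% of UMIs in the donor leptomeningeal cells, where Ccl9 was highest, and their part was not tested.

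Ccl3 and Ccl4, the early inflammatory ligands, were the most even of the 10. They lie close together on chromosome 11 (chr11:83647844-83649355, minus strand, and chr11:83662584-83664683, plus strand). Ccl3 had 253, 342 and 465 CPM in donor leptomeningeal cells, 242 and 262 (mutant) and 254 and 524 CPM (control) in host leptomeningeal cells, 233, 328 and 449.9 CPM in donor microglia, and 233, 251 and 274 CPM in host microglia. All 4 ranges overlapped. Donor microglia were higher than host microglia by 0.57 ± 0.12 (adjusted p = 1.23e-04). The 3 other differences were 0.41 ± 0.14 for donor minus host at the surface (adjusted p = 0.0301), 0.34 ± 0.12 for surface minus parenchyma in donor cells (adjusted p = 0.0132) and 0.50 ± 0.14 in host cells (adjusted p = 0.00333). They were lost in 7 of 12, 3 of 16 and 1 of 12 refits without a single library: the first was 0.18 (adjusted p = 0.382) without control host leptomeningeal library 1, and the last 0.18 (adjusted p = 0.272) without control host leptomeningeal library 2, the library with 524 CPM. With libraries scaled to their totals alone these 3 differences were 0.17, 0.10 and 0.32, and none passed.

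Ccl4 had 185, 259 and 334 CPM in donor leptomeningeal cells, 137 and 121 (mutant) and 154 and 320.1 CPM (control) in host leptomeningeal cells, 138, 204 and 280.2 CPM in donor microglia, and 259, 276 and 364 CPM in host microglia. Neighbouring ranges overlapped throughout, and the control library with high Ccl3 was also the high one for Ccl4. Donor cells were higher than host cells at the surface by 0.81 ± 0.17 (adjusted p = 5.16e-04). Donor microglia were lower than host microglia by -0.33 ± 0.14 (adjusted p = 0.0438), which was lost in 4 of 16 refits without 1 library, without both shallowest donor microglia libraries (-0.31, adjusted p = 0.0739) and with DESeq2's size factors (-0.25, adjusted p = 0.133). Surface minus parenchyma was 0.58 ± 0.14 in donor cells (adjusted p = 6.32e-04) and -0.55 ± 0.17 in host cells (adjusted p = 0.00757), and the host value was -0.49 (adjusted p = 0.0613) without mutant host leptomeningeal library 2.

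**Figure D3:**
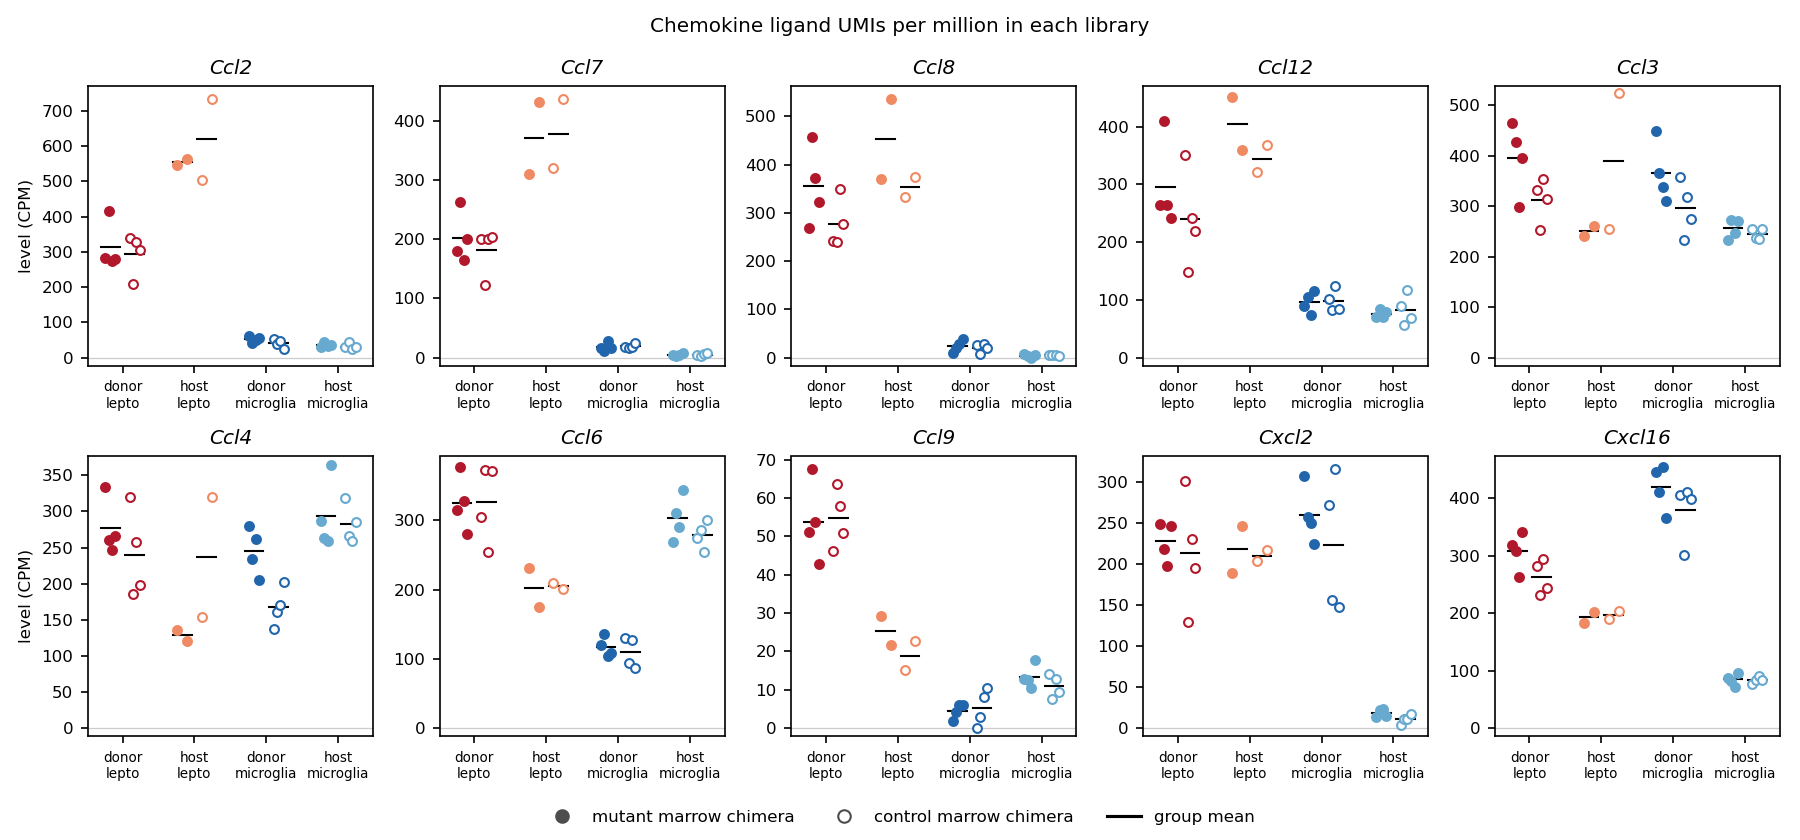
Level (CPM, linear axes that differ between panels) of each ligand in every library, by population, with mutant chimeras as filled and control chimeras as open points and the group mean as a line. Ccl2, Ccl7, Ccl8 and Ccl12 are high in leptomeningeal libraries, Cxcl2 and Cxcl16 are low in host microglia (at most 23.0 and 96.5 CPM), Ccl6 is low in donor microglia (at most 137 CPM), and 1 control host leptomeningeal library is high for Ccl3 and Ccl4 (524 and 320.1 CPM).

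The study set mutant against control marrow. Mutant minus control was tested in each population, and 0 of the 10 ligands passed in any of the 4. The share of all genes called was 0.0892% in donor microglia, 0.0649% in host microglia, 0.0487% in donor leptomeningeal cells and 0% in host leptomeningeal cells. DESeq2's Wald test called 0 ligands as well. At an unadjusted p under 0.05 in edgeR's test, 1 ligand was found in donor microglia, 2 in donor leptomeningeal cells, 2 in host leptomeningeal cells and 0 in host microglia. The share of all genes at an unadjusted p under 0.05 was not counted, here or for the gene lists below. Such counts can therefore not be read as more or fewer than among genes in general. Medians of the 10 log2 differences were 0.16 in donor microglia, 0.10 in host microglia, 0.20 in donor leptomeningeal cells and 0.03 in host leptomeningeal cells, against medians over all genes of 0.00, 0.02, -0.02 and 0.02. Standard errors of the differences ran from 0.11 for Cxcl16 in donor leptomeningeal cells to 0.58 for Ccl8 in host microglia. Differences of more than 2 SE did not pass at this depth and number of libraries. Among them were Ccl4 in donor microglia, Ccl3 and Ccl4 in host leptomeningeal cells, and Ccl3 and Cxcl16 in donor leptomeningeal cells.

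Ccl4 was the ligand with an unadjusted p under 0.05 in donor microglia. It had 280.2, 235, 261 and 205 CPM in mutant donor microglia, against 138, 160.3, 171 and 203 CPM in control donor microglia. The lowest mutant library was just above the highest control one. The difference was 0.57 ± 0.21 (unadjusted p = 0.0112, adjusted p = 0.358) and ran from 0.51 to 0.66 when any 1 library was left out. Over all alternatives tried its adjusted p ran from 0.137 to 0.567. Host leptomeningeal cells had the opposite sign, with 137 and 121 CPM in mutant and 154 and 320.1 CPM in control libraries, a difference of -0.82 ± 0.28 (adjusted p = 0.650). That value was -0.20 without control library 2. Ccl3 in the same cells had 242 and 262 CPM in mutant and 254 and 524 CPM in control libraries (-0.57 ± 0.24, adjusted p = 0.814), and 0.04 without control library 2, so that its sign rested on that library.

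In donor leptomeningeal cells, Ccl3 had 465, 427, 298 and 396 CPM in mutant libraries, against 332, 253, 353 and 315 CPM in control libraries (0.36 ± 0.16, adjusted p = 1). Cxcl16 had 319, 307, 263 and 341 CPM in mutant libraries, against 281, 232, 293 and 243 CPM in control libraries (0.25 ± 0.11, adjusted p = 1). Both sets overlapped. Cxcl2 in host microglia, the largest difference in that population, had 13.7, 22.5, 23.0 and 15.3 CPM in mutant libraries, against 3.88, 10.7, 11.8 and 17.2 CPM in control libraries (0.74 ± 0.40, adjusted p = 1). Neutrophil markers took 0.111 to 0.186% of UMIs in mutant donor microglia, against 0.141 to 0.984% in control donor microglia, and 3.66 to 8.25% in mutant donor leptomeningeal cells, against 5.54 to 9.70% in control donor leptomeningeal cells. Their part in the genotype values was not tested. Differences between genotype effects, tested for donor minus host microglia and for donor leptomeningeal cells minus donor microglia, passed for 0 of 10 ligands each, where 0.0324% and 0% of genes were called. The same differences had 0 ligands at an unadjusted p under 0.05 and 0 by DESeq2's Wald test.

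**Figure D4:**
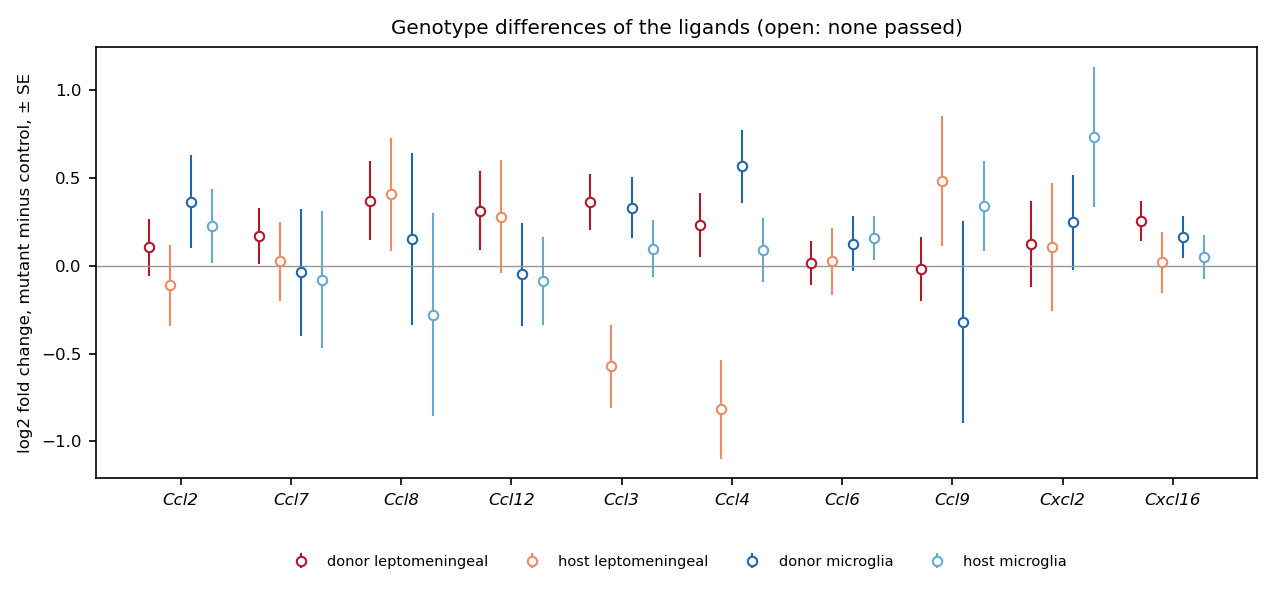
Log2 fold change of mutant minus control (points) with SE (bars) for each ligand in the 4 populations; open points did not pass. Most points lie between -0.5 and 0.75, and Ccl3 and Ccl4 of host leptomeningeal cells lie lowest (-0.57 and -0.82).

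Chemokine receptors were examined as a list of 23 genes, of which 14 were in the table and 10 were tested. In donor against host microglia 8 were higher and 2 lower, and in donor against host leptomeningeal cells 5 were higher and 2 lower, beside 60.4% and 30.2% of all genes called. Ccr1, the receptor of Ccl3, Ccl6 and Ccl9, averaged 92.3 ± 20.3 CPM in donor microglia, against 9.01 ± 2.33 CPM in host microglia (SD, n = 8 each), a log2 difference of 3.47 ± 0.14. Ccr2, the receptor of Ccl2, Ccl7 and Ccl12, averaged 431 ± 32.9 CPM in donor leptomeningeal cells, against 121 ± 21.9 CPM in host leptomeningeal cells (n = 8 and 4), and 73.4 ± 34.8 CPM in donor microglia, against 9.38 ± 2.60 CPM in host microglia. Cxcr2, the receptor of Cxcl2 and a neutrophil marker, averaged 20.5 ± 5.77 CPM in donor leptomeningeal cells, against 2.91 ± 0.92 CPM in host leptomeningeal cells. Cxcr4, the receptor of Cxcl12, was higher in donor than in host microglia by 5.39 ± 0.20, and it was the 1 receptor that passed for genotype. In host microglia it averaged 4.93 ± 1.65 CPM in mutant chimeras, against 1.05 ± 0.45 CPM in control chimeras (2.15 ± 0.46, adjusted p = 0.0461). This call was not stable: for genotype in host microglia, when 1 library was left out, no gene at all was called in 5 of 8 refits, nor in a fit of those libraries alone. Ccr2 is also a monocyte marker, and the 8 monocyte markers took 0.311 to 0.566% of UMIs in donor leptomeningeal cells, against 0.140 to 0.183% in host leptomeningeal cells. Cxcr6, the receptor of Cxcl16, averaged 8.28 ± 2.63 CPM in donor leptomeningeal cells, against 19.8 ± 3.99 CPM in host leptomeningeal cells.

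Of 27 further chemokine ligands, 16 were in the table and 15 were tested. In donor against host microglia 10 were higher and 1 lower (median log2 difference 2.35), in donor against host leptomeningeal cells 4 were higher and 2 lower (0.00), beside 60.4% and 30.2% of all genes called, and 0 passed for genotype in any population (2, 3, 0 and 2 had an unadjusted p under 0.05 in donor microglia, host microglia, donor leptomeningeal and host leptomeningeal cells). Surface against parenchyma gave 10 higher and 3 lower in donor cells and 14 higher and 0 lower in host cells, beside 62% and 56.7% of all genes called. Pf4, the platelet factor that border macrophages also make and 1 of their markers here, averaged 1317 ± 270.3 CPM in donor leptomeningeal cells and 3249 ± 326 CPM in host leptomeningeal cells, and 336 ± 70.8 CPM in donor microglia and 25.4 ± 6.57 CPM in host microglia. Donor minus host was -1.07 ± 0.14 at the surface and 3.94 ± 0.15 in the parenchyma, the same pair of directions as for Ccl2 and Ccl7. Ccl24, an eosinophil attractant, averaged 61.0 ± 11.6 CPM in donor leptomeningeal cells, against 240.2 ± 41.9 CPM in host leptomeningeal cells. Ccl17 and Ccl22, ligands of Ccr4, were higher in donor than in host leptomeningeal cells by 2.83 ± 0.49 and 2.40 ± 0.61. Cxcl14 was higher in donor than in host microglia by 5.30 ± 0.31 and Ccl27a by 3.55 ± 0.28, in libraries that also held the choroid plexus and astrocyte markers given above, whose part was not tested.

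Genes that respond to NF-kB and immediate early genes were followed as 2 lists, because several of the ligand genes are known to be induced through NF-kB and to respond within the time in which immediate early genes do. Of 23 NF-kB targets, 17 were higher and 4 lower in donor than in host microglia, and 13 were higher and 2 lower in donor than in host leptomeningeal cells, beside 60.4% and 30.2% of all genes called. Il1b, the cytokine interleukin 1 beta, averaged 688 ± 111 CPM in donor leptomeningeal cells, against 245 ± 59.0 CPM in host leptomeningeal cells, and 234 ± 75.2 CPM in donor microglia, against 24.9 ± 7.53 CPM in host microglia. Nfkbia, the inhibitor that NF-kB itself induces, was higher in donor cells by 1.18 ± 0.08 in microglia and 0.77 ± 0.09 in the leptomeninges, and Gadd45b by 1.85 ± 0.12 and 0.67 ± 0.11. Of 20 immediate early genes, 16 were higher and 3 lower in donor than in host microglia, and 7 were higher and 0 lower in donor than in host leptomeningeal cells, where the same shares of all genes were called. Ier2, Dusp1 and Fos were higher in donor microglia by 1.54 ± 0.10, 1.34 ± 0.09 and 1.14 ± 0.10. Of the 20, 16 were higher and 2 lower at the surface than in microglia of donor origin (30.5% and 31.5% of all genes). In host cells 17 were higher and 1 lower at the surface (31.1% and 25.7% of all genes). Klf4 was higher at the surface by 2.23 ± 0.10 in donor cells and 3.36 ± 0.11 in host cells. Median log2 differences of the immediate early list were 0.97 for donor minus host microglia and 1.35 for host leptomeningeal cells minus host microglia, beside 0.04 and 0.08 over all genes. The part of these responses in the ligand levels was not tested. For genotype, 0 NF-kB targets passed in any population (3, 4, 2 and 0 had an unadjusted p under 0.05 in the same order of populations), and of the immediate early genes Klf2 passed in host microglia, at 63.6 ± 2.64 CPM in mutant and 39.9 ± 9.70 CPM in control chimeras (0.70 ± 0.15, adjusted p = 0.0374). It was likewise lost in the 5 of 8 refits without 1 library in which 0 genes were called, and in the fit of host microglia alone. Of the 20 immediate early genes, 7, 4, 1 and 3 had an unadjusted p under 0.05 in the same order of populations. Their median log2 difference in donor microglia was 0.26, beside 0.003 over all genes. For the difference of genotype effects, 6 had such a p for donor minus host microglia. For donor leptomeningeal cells minus donor microglia 2 did, and 0 passed after adjustment in either.

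Genes with the pattern most like each ligand were found by the mean absolute difference of centred log2 group means over the 8 groups, among 8466 genes of at least 10 CPM. The measure is in log2 units, and a value near 0 means the same shape whatever the level. Ccl7 and Ccl8 were among the 3 nearest genes of each other, at 0.33, beside a range across groups of 6.10 and 6.94 log2 units, and F13a1, a transglutaminase subunit found in monocytes and border macrophages, was near both (0.29 and 0.42). Chp2 (0.33, for Ccl7) and Rpl39 (0.37, for Ccl8) were the others. Ccl2 was nearest to Kmo (0.26), which encodes an enzyme of the kynurenine pathway, and then to Uqcrb (0.35) and Gm37352 (0.37). Cxcl2 was nearest to Aoah (0.22), which encodes an enzyme that inactivates lipopolysaccharide, and then to Gas7 (0.23) and Iqgap2 (0.26). Cxcl16 was nearest to Svip (0.12), Clic4 (0.14) and Tmem176a (0.14). Ccl6 was nearest to Padi2 (0.08), Nfam1 (0.09) and Plcg2 (0.11), of which Plcg2 encodes a phospholipase of immune receptor signalling. Ccl9 was nearest to 1600010M07Rik (0.30), Triobp (0.36) and Rac2 (0.38). Ccl12 was nearest to Selenbp1 (0.14), Rcn3 (0.15) and Prr5 (0.16), and Ccl3 to B230118H07Rik (0.08), Ak3 (0.08) and Soat1 (0.09). Ccl4 was nearest to Prkd2 (0.11), a protein kinase gene, and then to Fbxo10 (0.14) and Gm36738 (0.15). Between members, Ccl3 and Ccl4 differed by 0.33, with ranges across groups of 1.12 and 1.31.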

How the data were processed

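Per the file headers and labels, the authors deposited 1 table with raw UMI counts, size-factor normalised signal (normalised counts) and regularised log2 values (rld) for each of 28 MARS-seq libraries. Per the file headers, the deposited signal values are the counts divided by a factor per library, and the deposited log2 values are DESeq2's regularised transform; neither was used in a test. The genome build was mm10, per the submitters' processing notes; aligner, counter and use of strand are not stated in the sources. Groups came from the sample titles, and columns were matched to libraries by the column name in each sample's description. No 2 libraries of the same group agreed within sampling noise.

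CPM are counts over the library total, without further scaling. Tests used edgeR 4.0.16 in R 4.3.3 (quasi-likelihood, robust, TMM, filterByExpr over 8 groups) on the deposited counts, in 1 fit of all 28 libraries and 12327 genes, with Benjamini-Hochberg adjustment over all of them at 0.05. Origin and compartment contrasts average both genotypes. The procedure was tested on simulated counts with the same spread for every gene. That simulation did not cover changes as small as the genotype differences of the ligands, or changes in genes of low count. The alternatives were DESeq2 1.42.0 size factors and Wald test, no filter, a fit of the compared groups alone, a block for the replicate number, each library dropped in turn, both shallowest donor microglia libraries dropped, and library totals without further scaling, the last chosen after seeing the data. Members, gene lists and alternatives were chosen with earlier results of these data known. All 10 members were named; of each other list up to 4 genes per comparison with the smallest adjusted p under 0.05 were eligible, and per member the 3 genes nearest in pattern. Ccr2 in microglia and Cxcr6 at the surface fall outside this rule and were added, as receptors of members, after their values were seen. Only some of the eligible list genes are named, and 1 of them is not reported here. Libraries of the same number and genotype showed correlations of -0.117 to 0.0928 in their deviations from the group means, with 0 of 36 over 0.1. Low correlations between different sorted cells cannot show that libraries of the same number came from different animals. The labels do not settle this, and the main fit did not pair by number.

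Upstream sequences came from RefSeq on GRCm38.p6, matched by symbol (6 of 10 members), and gene positions from GENCODE M21; alignments used Biopython 1.88. Figures used matplotlib 3.10.9, pandas 2.3.3 and Python 3.11.15.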

Additional observations from a re-analysis of the deposited data

Results flagged for a closer look

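The effect of donor origin differed between leptomeninges and parenchyma for 9 of the 10 ligands, by an interaction term in edgeR's quasi-likelihood test (log2, donor minus host at the surface minus the same in the parenchyma), where 42.3% of all genes tested were called. The difference was 2.67 for Ccl9, 2.10 for Ccl6 and 1.13 for Ccl4, and -3.96 for Cxcl2, -2.79 for Ccl7, -2.51 for Ccl8, -1.63 for Cxcl16, -1.32 for Ccl2 and -0.71 for Ccl12, whose call was lost in 15 of 28 refits without 1 library. Cxcl2 shows what such a value is made of: its mean was 241 CPM in donor microglia, against 14.7 CPM in host microglia, and 220.5 CPM in donor leptomeningeal cells, against 214 CPM in host leptomeningeal cells.

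The genotype difference of Ccl4 was 0.57 in donor microglia and -0.82 in host leptomeningeal cells. In donor microglia the lowest mutant library had 205 CPM and the highest control library 203 CPM. Host leptomeningeal cells had 2 libraries a genotype, and their value was -0.20 without control library 2. The genotype differences of these populations were not tested against each other, and neither passed on its own.

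In 4 of 60 groups of 4 libraries, 1 library stood far from the others relative to the range of its group, and chance gives about 1 in 20. Mutant donor leptomeningeal library 2 was high for Ccl2, at 416.8 CPM with the nearest library at 282.0 CPM, and for Ccl12, at 410.0 CPM with the nearest at 264.8 CPM. Control donor leptomeningeal library 2 was low for Ccl7, at 122.9 CPM with the nearest at 200.4 CPM. These libraries also had the lowest (3.66%) and the highest (9.70%) neutrophil marker share among the 8 donor leptomeningeal libraries, whose part in these levels was not tested. Control donor microglia library 2 was low for Cxcl16, at 300.4 CPM with the nearest at 398.8 CPM.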

How the results depend on the processing

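No ligand changed sign among called values under any alternative. The number of ligands called stayed within 8 to 10 for donor minus host microglia, 6 to 7 for donor minus host leptomeningeal cells, 8 to 9 and 8 to 10 for surface minus parenchyma in donor and host cells, and 8 to 9 for the difference of origin effects when any 1 library was left out, and at 0 for genotype in every refit. With the replicate numbers as a block, Ccl4 and Ccl12 lost their calls between donor and host microglia (-0.32, adjusted p = 0.064, and 0.45, adjusted p = 0.0604) and Ccl12 its origin difference (-0.70, adjusted p = 0.0677), leaving 8 of 10 and 8 of 9 ligands; with a block within genotype Ccl3 lost its call between donor and host leptomeningeal cells (0.43, adjusted p = 0.0619) and Ccl4 between donor and host microglia (-0.32, adjusted p = 0.0964). Neither block changed any other ligand's call. Without the filter on low counts Ccl12 lost its calls between donor and host microglia (0.42, adjusted p = 0.0705) and for the origin difference (-0.65, adjusted p = 0.068), and in a fit of those libraries alone Ccl3 lost its call between donor and host leptomeningeal cells (0.39, adjusted p = 0.152). The sign of the genotype difference, called for none, depended on the scaling for Ccl6 and Ccl9 in donor and for Ccl6, Ccl7 and Cxcl16 in host leptomeningeal cells.

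Counts over all genes moved more. In donor microglia 11 genes were called for genotype, against 84 by DESeq2's Wald test and 3 to 544 when 1 library was left out (544 without control library 2). In host leptomeningeal cells 0 were called, against 26 by the Wald test and 17 in a fit of those libraries alone, and in host microglia 8, against 15 and 0, with 0 to 11 when 1 library was left out (0 in 5 of 8 refits). The difference of genotype effects had 4 genes for donor minus host microglia and 0 for donor leptomeningeal cells minus donor microglia, and 75 and 149 without control donor microglia library 2. With libraries scaled to totals alone, the median of all genes was -0.14 for donor minus host microglia, -0.22 for donor minus host leptomeningeal cells, -0.28 and -0.10 for surface minus parenchyma in donor and host cells, and the calls split 3513 higher and 4480 lower (4083 and 3365 with TMM), 1317 and 3088 (2083 and 1636), 2724 and 5150 (3757 and 3889) and 3171 and 4055 (3831 and 3164). The cause of these shifts was not tested. Host leptomeningeal cells had 2 libraries a genotype, donor microglia had the fewest UMIs, and Ccl9, Ccl8 and Ccl7 of microglia rest on few UMIs.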
